A study of Mus musculus with 23 samples.

Results

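Calf muscle of mice that had been hindlimb-suspended for 12 days and then allowed to stand again for 3.5 h (reloaded, n = 5) was set against calf muscle of mice that were never suspended (control, n = 5). The comparison asks for the net state of the muscle after unloading and a few hours of weight bearing: which genes stood above the never-suspended level, which stayed below it, and which lay near it. The 10 arrays were chosen by their sample titles from the 23 arrays of the series, and all genes on them were described. A further 5 calf arrays of mice suspended for 12 days with no return to the floor (suspended, n = 5) are set beside them, so that a reloaded value can be read against both.

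All animals were female C57BL/6J mice aged 77 days. Reloaded and suspended mice hung by the tail at about 30 degrees from a swivel, so that the hindlimbs bore no weight, and controls lived in normal cages, 3 mice to a cage, with no treatment. Total RNA of snap-frozen muscle was labelled with biotin and hybridised to Affymetrix arrays with 22690 probe sets, 1 array per sample. The labels name the tissue as calf muscle without naming its single muscles, and whether replicates come from different mice is not stated, so the tests speak for the spread among these arrays only. The other 8 arrays, of a flight experiment on gastrocnemius, were used here only in the filter on low values and in 1 alternative fit.

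Skeletal muscle senses its load through the sarcomere, the actin cytoskeleton and the membrane, and it answers changes in load by altering gene expression. Unloading shrinks above all the slow, oxidative fibres, which carry posture and burn fat. The return of weight stretches fibres that have become weaker, and chaperones, immediate-early transcription factors and proteins of the Z-disc (the plate that anchors the thin filaments) are known to respond to such stretch.

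Median log2 signal lay between 6.29 and 6.33 on the reloaded arrays, between 6.28 and 6.39 on the suspended arrays and between 6.29 and 6.34 on the control arrays. The mean of 11 skeletal muscle fibre markers, such as the creatine kinase Ckm and the fast myosin Myh4, was 12.95 to 13.07 on reloaded, 12.89 to 13.00 on suspended and 12.97 to 13.05 on control arrays. Suspended replicates 8 and 9 had the narrowest spread of values of the 15 arrays (interquartile ranges of 2.21 and 2.29, against 2.32 to 2.44 on reloaded and 2.35 to 2.44 on control arrays). Control replicates 1 and 2 stood apart from control replicates 19, 21 and 22 in single genes, by 1.46 on the log2 scale for the fatty acid synthase Fasn and by -0.97 for the collagen Col1a1, with no overlap in either. What sets these 2 apart is not given in the sources used here, and without the pair 8 of the 29 calls described below were lost: Hspb1, Srxn1, Serinc3, Riok3, Gpt2, Cyp2e1, Idh2 and Ldhb, each given with and without them. Leaving the pair out was chosen after the data were seen. A larger difference without it, such as in Fasn, Tkt, Fabp3 and Plin5, is therefore no further support.

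After 3.5 h of weight bearing, the muscle was neither back at control nor left as suspension had it. The inducible chaperone genes Hspa1a and Hspa1b and the transcription factor genes Atf3 and Jun stood above the never-suspended level. So did genes of load-sensing proteins, such as Xirp1, Ankrd1 and Csrp3. The ketone body enzyme gene Bdh1, the fatty acid-binding protein gene Fabp3 and 3 further metabolic genes stood below that level. The fit with limma called 29 of 9133 tested genes (0.318%) at a Benjamini-Hochberg adjusted p under 0.05, of which 24 were higher (0.263%) and 5 lower (0.0547%) in reloaded muscle. Of these, 8 were at least 2-fold higher and 1 at least 2-fold lower. At an unadjusted p under 0.05 there were 664 genes. The median difference over all tested genes was -0.02 on the log2 scale, and the middle of the distribution was narrow, from -0.18 at the 5th percentile to 0.17 at the 95th percentile. The reloaded and control arrays did not overlap at all for 24 of the 29 genes, against 2.64% of all tested genes; the 5 that overlapped were Xirp1, Ier5, Ccn1, Hspb1 and Plin5. A difference in bulk tissue cannot tell fewer cells of a type from less RNA per cell.

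**Figure D1:**
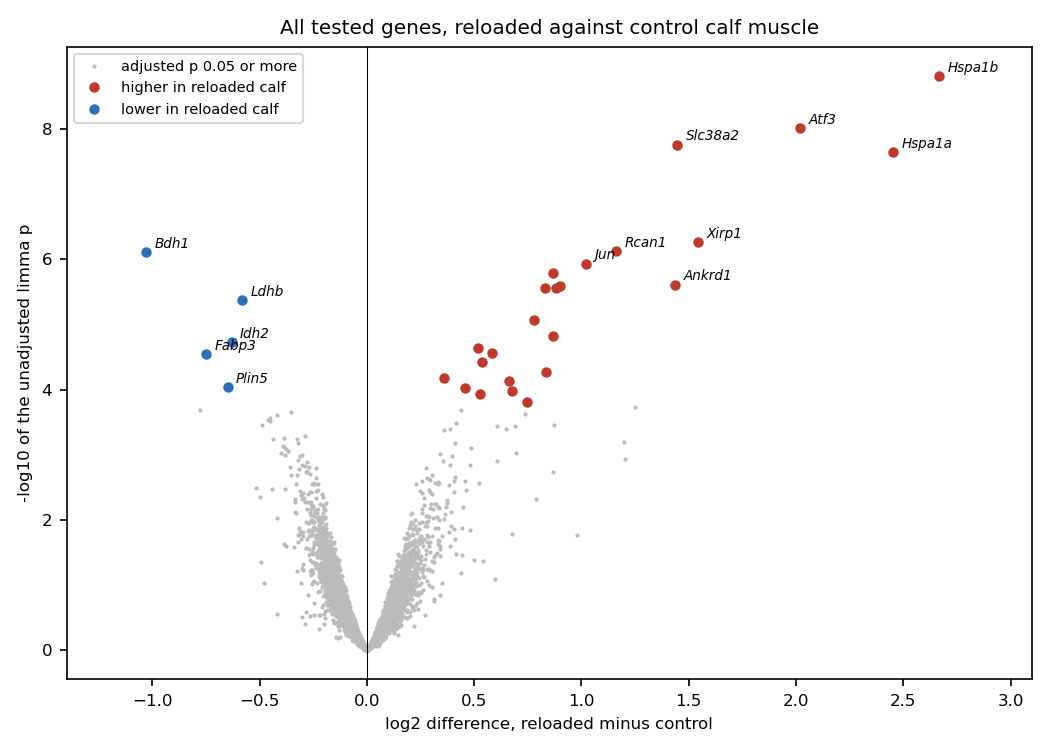
Each point is 1 of the 9133 tested genes; the horizontal axis is the log2 difference, reloaded minus control, and the vertical axis is -log10 of the unadjusted limma p. Red points are the 24 genes called higher and blue points the 5 called lower; Hspa1b lies farthest right, at 2.67, and Bdh1 farthest left of the called genes, at -1.03.

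The suspended arrays separate the 29 genes into those that reloaded muscle also held above suspended muscle and those not called between reloaded and suspended muscle. The comparison with suspended muscle shares the reloaded arrays, and the suspended against control comparison shares the controls. These values are therefore given side by side, and no overlap between the comparisons is read. The 29 genes were picked on the shared arrays. Counts above the shares over all tested genes are therefore no further support. Of the 24 higher genes, 18 were also called higher against suspended muscle (0.547% of all tested genes were) and 6 were not (Mustn1, Asb5, Serinc3, Riok3, Gpt2 and Cyp2e1). The mean of suspended muscle lay below control for 15 of the 24. None of the 5 lower genes was called by limma against suspended muscle, where 0.0328% of all tested genes were called lower. In suspended muscle against control, 4 of them were called lower, as were 0.241% of all tested genes, and Gpt2 and Cyp2e1 were called higher, as were 0.131%.

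**Figure D2:**
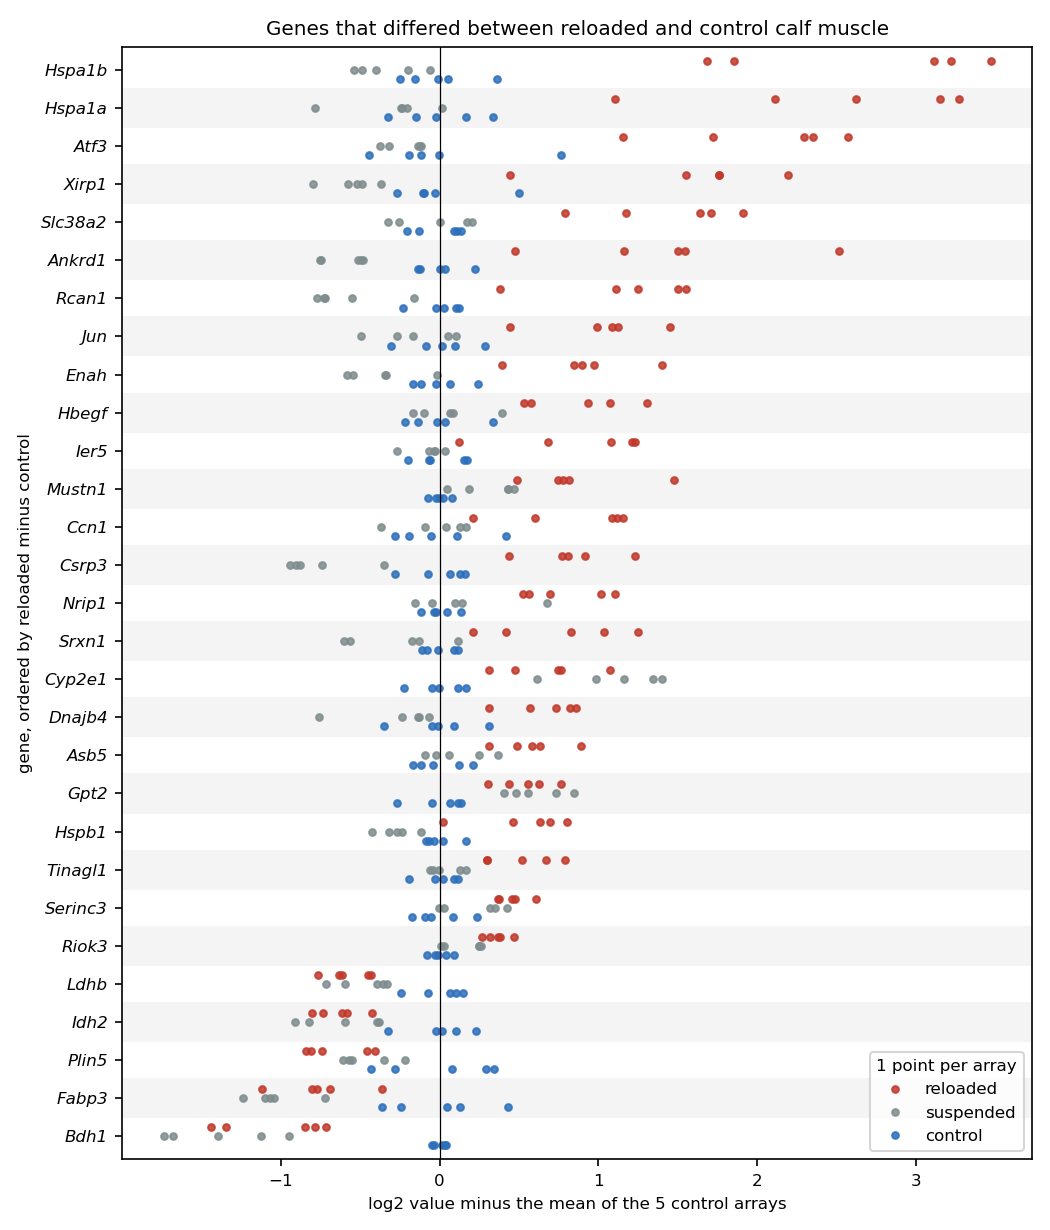
Every array of the 29 called genes is 1 point; the horizontal axis is the log2 value minus the mean of the 5 control arrays, and genes run down the page from the most raised, Hspa1b, to the most lowered, Bdh1. Red reloaded points lie right of the blue control points for the chaperone, transcription factor and Z-disc genes, with some overlap in Xirp1, Ier5, Ccn1 and Hspb1. For Bdh1, Fabp3, Plin5, Idh2 and Ldhb the red and grey (suspended) points lie together on the left, with both overlapping the controls in Plin5.

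Chaperone genes gave the largest single values. Hspa1b and Hspa1a, which encode the stress-inducible form of HSP70, were 6.35-fold and 5.47-fold higher in reloaded than in control muscle, and the small heat shock protein Hspb1 and the HSP40 co-chaperone Dnajb4 were 1.44-fold and 1.58-fold higher. Hspa1b had log2 values of 8.99, 10.36, 8.82, 10.61 and 10.25 in reloaded muscle (replicates 14, 15, 16, 18 and 33), against 7.13, 7.50, 7.19, 6.98 and 6.89 in control muscle (replicates 1, 2, 19, 21 and 22). The lowest reloaded array lay well above the highest control array, and the reloaded arrays spread more widely than the controls. The difference was 2.67 ± 0.26 (SE; limma adjusted p = 1.39e-05; 95% interval of the fold, 4.38 to 9.20), and suspended muscle, at a mean of 6.80 ± 0.20 (SD, n = 5), was not called against control (-0.34, adjusted p = 0.746). Its other 2 probe sets differed by 2.19 and 2.81. The SE and interval of Hspa1b rest on a spread shared by the 3 groups and understate that of the reloaded arrays. Its SD was 0.84 in reloaded, 0.20 in suspended and 0.24 in control muscle. Hspa1a differed by 2.45 ± 0.28 (adjusted p = 5.22e-05). These genes are near-identical copies, and the probe sets may read both, so the share of each is uncertain.

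The start regions of the chaperone genes are shown because heat shock factors are known to bind inverted repeats of GAA. RefSeq holds a promoter window, from 250 bases before to 50 after the annotated start, for 26 of the 29 called genes (build GRCm38.p6). The 150 bases just before the start are printed 5′ to 3′ on the gene's own strand, in lower case, with each match to TTCNNGAA or GAANNTTC in capitals. Dnajb4 has 2 windows; the one with a match is shown, and the other, at chr3:152210034-152210333, held neither motif. Both motifs read the same on either strand.
Hspa1a (chr17:34972157-34972306, minus strand): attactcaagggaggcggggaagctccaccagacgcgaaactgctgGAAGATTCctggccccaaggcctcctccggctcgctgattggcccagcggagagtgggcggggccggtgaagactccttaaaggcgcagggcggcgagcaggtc
Hspa1b (chr17:34959239-34959388, minus strand): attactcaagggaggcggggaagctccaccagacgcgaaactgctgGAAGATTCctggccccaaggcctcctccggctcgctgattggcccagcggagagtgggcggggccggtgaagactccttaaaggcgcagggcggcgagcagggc
Hspb1 (chr5:135887769-135887918, plus strand): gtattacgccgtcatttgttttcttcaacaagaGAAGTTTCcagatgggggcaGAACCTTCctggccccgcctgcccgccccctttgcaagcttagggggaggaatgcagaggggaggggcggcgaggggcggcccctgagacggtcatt
Dnajb4 (chr3:152193846-152193995, minus strand): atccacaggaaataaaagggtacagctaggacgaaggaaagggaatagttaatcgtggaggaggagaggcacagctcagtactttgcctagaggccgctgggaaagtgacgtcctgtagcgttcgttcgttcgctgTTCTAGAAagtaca
The Hspa1a and Hspa1b stretches were the same at 149 of 150 bases. In the full windows, GAANNTTC was found for 10 of the 26 genes and in 7.86% of all 32851 mouse windows, TTCNNGAA for 3 of the 26 genes and in 8.52% of all windows, and at least 1 of the pair for 13 genes and in 15.1% of all windows. The 13 were Hspa1a, Hspa1b, Hspb1, Dnajb4, Jun, Ccn1, Ankrd1, Csrp3, Rcan1, Mustn1, Asb5, Tinagl1 and, among the lower genes, Bdh1. A gene can have several windows. Of the 35 windows of the 26 genes, 13 held at least 1 of the pair, which is the count to set beside 15.1%. A match is a match of letters and no evidence of binding.

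Not all chaperone genes stood above control. Of 31 tested heat shock proteins and co-chaperones, 4 were called higher and 0 lower in reloaded muscle, against 0.263% and 0.0547% of all tested genes. Their median difference was 0.04, against -0.02 for all tested genes. In suspended muscle their median was -0.21. Hspb7 and Cryab instead were called lower than control in suspended muscle and were not called in reloaded muscle. Hspb7, a small heat shock protein of heart and muscle, had means of 11.36 ± 0.32 in reloaded, 10.31 ± 0.40 in suspended and 11.21 ± 0.14 in control muscle (SD, n = 5 each). Its reloaded minus control difference was 0.16 (limma adjusted p = 0.92; 95% interval -0.18 to 0.49), while suspended muscle was lower than control by -0.89 (adjusted p = 0.0134) and reloaded muscle higher than suspended by 1.05. Cryab, the lens and muscle chaperone alpha-B crystallin, differed by 0.04 from control (95% interval -0.15 to 0.23), with suspended muscle at -0.44 (adjusted p = 0.0333). With each probe set tested on its own, that suspended difference did not pass (limma adjusted p = 0.0511). Bag3, a co-chaperone of HSP70 at the Z-disc, differed by 0.01 (-0.17 to 0.20), with suspended muscle at -0.27 (adjusted p = 0.311). Hspa8, the constitutive HSP70 relative, differed by 0.09, with suspended muscle at -0.44 (adjusted p = 0.456). The Hspb1 call was lost when any 1 of 10 arrays was left out (control replicates 1, 19, 21 or 22, reloaded replicates 14, 15, 18 or 33, suspended replicates 9 or 30; adjusted p 0.0535 to 0.144), and without control replicates 1 and 2 together (0.59, adjusted p = 0.0857). The Dnajb4 call was lost without any 1 of 8 arrays (the same control and reloaded arrays; adjusted p 0.0519 to 0.112). A second Dnajb4 probe set gave only 0.39, with a limma adjusted p of 0.429 when probe sets were fitted singly. Averaging a gene's probe sets ended the Hspb1 and Dnajb4 calls too.

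**Figure D3:**
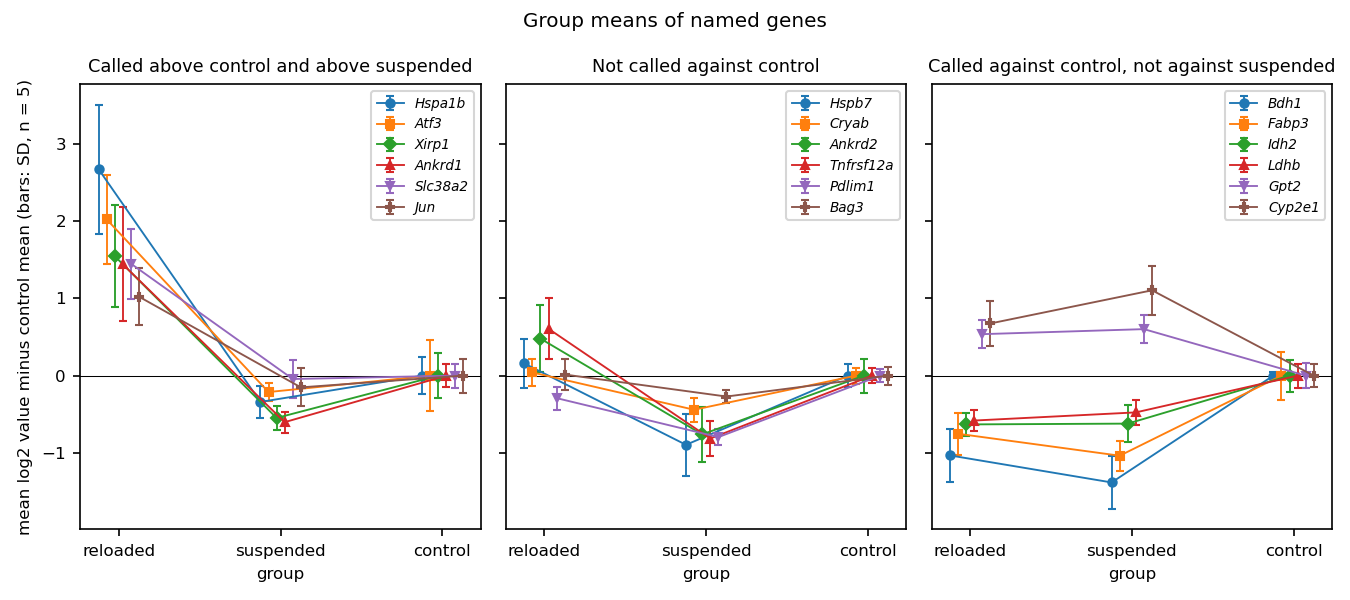
Points are group means of log2 values minus the control mean, and bars are SD (n = 5 each); reloaded, suspended and control muscle stand from left to right, and lines only join points of 1 gene. Genes on the left, such as Hspa1b and Atf3, were called above both other groups in reloaded muscle; those in the middle were not called against control, with Hspb7 at 0.16 in reloaded and -0.89 in suspended muscle; those on the right, such as Bdh1 and Cyp2e1, are on the same side of control in reloaded and suspended muscle.

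Among immediate-early transcription factors, whose genes are switched on within minutes to hours of a stimulus, Atf3, Jun and Ier5 were higher in reloaded muscle. Atf3, a stress-induced member of the CREB family, had values of 8.93, 8.99, 7.79, 9.21 and 8.36 in reloaded muscle, against 6.63, 7.40, 6.44, 6.19 and 6.52 in control muscle. No reloaded array reached down to the highest control array, replicate 2. The difference was 2.02 ± 0.22 (limma adjusted p = 4.45e-05), or 2.27 without control replicates 1 and 2. Jun, a subunit of AP-1, had values of 9.62, 10.08, 9.07, 9.71 and 9.75 in reloaded muscle, against 8.54, 8.64, 8.32, 8.72 and 8.91 in control muscle, a difference of 1.02 ± 0.15 (adjusted p = 0.00132). A second Jun probe set, at a lower level, differed by 0.49 and did not pass. Ier5, an immediate-early gene linked to heat shock factor activity, was higher by 0.87 ± 0.15 (adjusted p = 0.00869), but reloaded replicate 16 lay among the controls. Its other 2 probe sets differed by 0.46 (adjusted p = 0.125 with each probe set tested on its own) and 0.01, and with the mean of its probe sets the Ier5 call was lost (0.45, adjusted p = 0.0542).

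The stretch before the Jun start is shown with the same motif in capitals.
Jun (chr4:95052223-95052372, minus strand): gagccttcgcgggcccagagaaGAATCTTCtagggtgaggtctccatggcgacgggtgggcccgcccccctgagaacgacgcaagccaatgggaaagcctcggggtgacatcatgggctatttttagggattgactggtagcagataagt
Fos, the partner of Jun in AP-1, had a higher mean in reloaded muscle but did not pass (1.20 ± 0.30, limma adjusted p = 0.113; 95% interval 0.58 to 1.82). Its reloaded arrays ran from 7.05 to 8.77 and its control arrays from 6.21 to 7.84, so the groups overlapped. Without control replicate 22, at 7.84, the difference was 1.45 (adjusted p = 0.02), and without reloaded replicate 16 it was 1.44 (adjusted p = 0.0153). These are the highest control and the lowest reloaded array, so leaving either out must raise the difference and lends it no support. Against suspended muscle, Fos was called higher by 1.69 (adjusted p = 0.0041). Of the 25 tested immediate-early genes, 3 were called higher, against 0.263% of all tested genes. None was called lower and 22 did not pass, with a median of 0.06. Egr1 (0.87, adjusted p = 0.203) and Btg2 (0.65, adjusted p = 0.0814) were uncalled as well, and Junb (-0.07), Srf (0.00) and Nr4a1 (0.05) lay near control. Myc lay below the level set for testing.

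Genes of proteins that couple the sarcomere to load formed the next group. Ankrd1 binds the spring protein titin, Csrp3 is a LIM protein of the Z-disc, Xirp1 binds actin at the ends and repair sites of fibres, and all are known to rise with stretch or overload. Ankrd1 had values of 8.19, 8.15, 7.12, 9.16 and 7.81 in reloaded muscle, against 6.51, 6.87, 6.52, 6.65 and 6.68 in control muscle, with no overlap. The difference was 1.44 ± 0.22 (limma adjusted p = 0.00194), and the suspended mean of 6.05 lay below control by 0.60 on the log2 scale without passing (adjusted p = 0.373). Xirp1 had values of 11.20, 11.20, 9.88, 11.63 and 10.99 in reloaded muscle, against 9.41, 9.94, 9.34, 9.17 and 9.33 in control muscle. Only reloaded replicate 16 fell within the controls, just below control replicate 2, and the difference was 1.54 ± 0.21 (adjusted p = 0.001).

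Csrp3, muscle LIM protein, was the one gene called on both sides of control, lower in suspended and higher in reloaded muscle. It had values of 10.70, 10.66, 10.33, 11.12 and 10.81 in reloaded muscle, 8.99, 9.15, 8.95, 9.54 and 9.01 in suspended muscle (replicates 8, 9, 11, 25 and 30) and 9.82, 10.05, 10.02, 9.96 and 9.61 in control muscle. The 3 sets of arrays did not overlap. Reloaded muscle was higher than control by 0.83 ± 0.13 (limma adjusted p = 0.00194) and higher than suspended by 1.60 (adjusted p = 6.54e-07), and suspended muscle was lower than control by -0.76 (adjusted p = 0.00891). Enah, an actin-polymerisation factor of the Ena/VASP family, was higher by 0.90 ± 0.14 (adjusted p = 0.00194) with no overlap; its probe sets gave 0.23 to 1.56.

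Of 25 tested load-sensing sarcomere and Z-disc genes, 3 were called higher, against 0.263% of all tested genes. None was called lower and 22 did not pass, with a median of 0.08, against -0.18 in suspended muscle. Ankrd2, the slow-fibre relative of Ankrd1, differed by 0.48 (limma adjusted p = 0.506; 95% interval 0.11 to 0.85) and was called higher against suspended muscle by 1.24. Filamin C (Flnc, 0.52, adjusted p = 0.243) did not pass. Pdlim1, a PDZ-LIM protein of stress fibres and Z-discs, lay between the other groups: values were 9.91, 10.20, 9.82, 10.06 and 10.08 in reloaded muscle, against 10.36, 10.34, 10.39, 10.22 and 10.21 in control muscle. It did not overlap but was not called (-0.29, adjusted p = 0.184), whereas it was higher than suspended muscle by 0.50 (adjusted p = 0.00143). Of 25 tested actin cytoskeleton and Srf target genes, 0 were called by limma, and their median was 0.04; actin itself (Actb) differed by 0.23 and Tpm4 by 0.33.

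Secreted and receptor genes of the stretch response were mixed. Hbegf, a ligand of the EGF receptor, was higher by 0.88 ± 0.14 (limma adjusted p = 0.00194), with values of 8.11, 8.25, 7.75, 8.48 and 7.71 in reloaded muscle, against 7.21, 7.51, 7.04, 7.16 and 6.96 in control muscle. The matricellular protein gene Ccn1, a target of YAP and SRF, was higher by 0.83 ± 0.16 (adjusted p = 0.0226). That call was lost when any 1 of 6 arrays was left out (control replicates 19, 21 or 22, reloaded replicates 15, 18 or 33; adjusted p 0.0668 to 0.0944). Its relative Ccn2 differed by 0.19 (95% interval -0.20 to 0.57). The receptor Tnfrsf12a, which binds the cytokine TWEAK, stood at 10.27, 10.10, 9.37, 10.37 and 9.93 in reloaded muscle, against 9.27, 9.51, 9.39, 9.36 and 9.48 in control muscle. Reloaded replicate 16 alone lay within the controls, and the difference of 0.61 did not pass (adjusted p = 0.0761). Without that array it was 0.76 (adjusted p = 0.000806). Leaving out the lowest reloaded array must raise the difference and lends it no support. Suspended muscle was lower than control in Tnfrsf12a by -0.81 (adjusted p = 0.0105). Of 13 tested genes of this list, 2 were called higher, against 0.263% of all tested genes, and 0 lower, with a median of 0.12. The basement membrane protein gene Tinagl1, which lay outside the naming rule and was chosen after its values were seen, was higher by 0.52 (adjusted p = 0.0116); without control replicate 21 or reloaded replicate 14 its adjusted p was 0.0502 to 0.0506.

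The TTCNNGAA match before the Ccn1 start is in capitals.
Ccn1 (chr3:145649986-145650135, minus strand): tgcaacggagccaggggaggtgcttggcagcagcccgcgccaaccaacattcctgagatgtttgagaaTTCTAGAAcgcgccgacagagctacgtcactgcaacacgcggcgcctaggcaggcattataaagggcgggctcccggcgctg

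Nutrient, calcium and redox genes were also among those above control. Slc38a2, which encodes the amino acid carrier SNAT2, had values of 10.47, 10.40, 9.55, 10.67 and 9.93 in reloaded muscle, against 8.63, 8.89, 8.55, 8.85 and 8.87 in control muscle, with no overlap. The difference was 1.45 ± 0.16 (limma adjusted p = 5.22e-05), and suspended muscle, at -0.04, lay near control. The other amino acid transport and aminoacyl-tRNA gene called was Gpt2, and 20 of 22 tested did not pass (median 0.01). Rcan1, an inhibitor of the calcium-dependent phosphatase calcineurin, had values of 10.01, 9.57, 8.84, 9.96 and 9.71 in reloaded muscle, against 8.44, 8.58, 8.49, 8.56 and 8.23 in control muscle. It was higher by 1.16 ± 0.17 (adjusted p = 0.00101) and was the single called gene of 22 tested calcium handling genes. Beside both lists, 0.263% of all tested genes were called higher. Nrip1, a corepressor of oxidative genes, was higher by 0.78 ± 0.13 (adjusted p = 0.00521) with no overlap.

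Of 20 tested metallothionein and antioxidant genes 1 was called higher, against 0.263% of all tested genes. Srxn1, sulfiredoxin, which repairs oxidised peroxiredoxins, was this gene, higher by 0.75 ± 0.16 (limma adjusted p = 0.049). Of its other 3 probe sets, 1 differed by only 0.03, and the call was lost when any 1 of 9 arrays was left out (every control array, reloaded replicates 14, 15 or 18, or suspended replicate 30; adjusted p 0.0727 to 0.186). It was also lost without control replicates 1 and 2 together (0.81, adjusted p = 0.126). The metallothioneins Mt1 (0.07, 95% interval -0.31 to 0.45) and Mt2 (0.22, -0.14 to 0.58) were not called. The stretch before the Srxn1 start is shown with matches to the AP-1 motif TGANTCA in capitals. This motif also reads the same on both strands. It was found for 4 of the 26 genes (Srxn1, Rcan1, Plin5 and Tinagl1), in 4 of their 35 windows, and in 7.81% of all windows.
Srxn1 (chr2:152105374-152105523, plus strand): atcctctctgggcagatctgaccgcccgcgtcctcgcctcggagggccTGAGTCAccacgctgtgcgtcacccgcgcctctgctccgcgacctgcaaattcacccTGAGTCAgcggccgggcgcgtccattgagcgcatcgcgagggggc

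Another 4 genes were called against control and not against suspended muscle, with suspended means between the other groups or near control. Mustn1, a small nuclear protein of muscle and skeleton, had values of 9.65, 9.72, 9.68, 10.38 and 9.39 in reloaded muscle, against 8.92, 8.83, 8.88, 8.90 and 8.98 in control muscle, a difference of 0.87 ± 0.13 (limma adjusted p = 0.00165). The controls lay close together. Against suspended muscle the difference was 0.55 (adjusted p = 0.0617). Asb5, an ankyrin repeat and SOCS box protein, was higher by 0.58 ± 0.11 (adjusted p = 0.0128, or 0.0509 to 0.0566 without control replicate 19, control replicate 21 or reloaded replicate 18). Serinc3 (0.46) and the kinase Riok3 (0.36, named after its values were seen) were the smallest increases. Each lost its call without any 1 of 7 arrays: control replicates 1, 19 or 22 and reloaded replicates 14, 15, 18 or 33 for Serinc3 (adjusted p 0.0575 to 0.138), control replicates 2, 19, 21 or 22 and reloaded replicates 14, 18 or 33 for Riok3 (0.0559 to 0.0956). Without control replicates 1 and 2 together neither passed (Serinc3 0.43, adjusted p = 0.198, and Riok3 0.39, adjusted p = 0.0964). Both calls were also lost with the mean of the gene's probe sets. With each probe set tested on its own, none of their other probe sets passed (0.05 to 0.39 for Serinc3, 0.09 to 0.21 for Riok3).

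A pair of genes above control stood there in suspended muscle too. Gpt2, mitochondrial alanine aminotransferase, had values of 9.87, 9.68, 9.55, 10.01 and 9.80 in reloaded muscle, 9.73, 9.80, 9.98, 10.09 and 9.65 in suspended muscle and 8.98, 9.36, 9.38, 9.31 and 9.20 in control muscle. Reloaded and suspended arrays covered the same range, above all controls. Gpt2 was higher than control by 0.54 ± 0.10 in reloaded muscle (limma adjusted p = 0.0161) and by 0.60 in suspended muscle (adjusted p = 0.00891). Leaving out control replicate 1 or 22 or reloaded replicate 14 or 18 ended the Gpt2 call (adjusted p 0.0558 to 0.0746), as did leaving out control replicates 1 and 2 together (0.49, adjusted p = 0.112). The cytochrome P450 gene Cyp2e1 was higher by 0.67 ± 0.14 in reloaded (adjusted p = 0.0359) and by 1.10 in suspended muscle (adjusted p = 0.000442). Its call was lost without any 1 of 8 arrays (control replicates 1, 19, 21 or 22, reloaded replicates 14, 16 or 33, suspended replicate 30; adjusted p 0.0576 to 0.13) and without control replicates 1 and 2 together (0.73, adjusted p = 0.104).

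Of 16 tested lipogenesis and NADPH supply genes, 0 were called by limma. In reloaded muscle 11 had a higher and 5 a lower mean, against 41.8% and 58.2% of all tested genes. Their median was 0.20, and 0.25 in suspended muscle. The median of 11 adipocyte markers, of which Scd1 is in both lists, stood beside it at 0.12 in reloaded and 0.38 in suspended muscle; array by array it ran from -0.12 to 0.22 in reloaded, from 0.24 to 0.76 in suspended and from -0.32 to 0.19 in control muscle, and its part in these values was not tested. Fasn, fatty acid synthase, had values of 8.37, 7.28, 8.83, 7.83 and 8.42 in reloaded muscle, against 7.80, 7.84, 6.51, 5.98 and 6.59 in control muscle, where replicates 1 and 2 were the high pair. The difference was 1.20 ± 0.32 with all controls (limma adjusted p = 0.158) and 1.79 without replicates 1 and 2 (adjusted p = 0.00358). Fasn is among the genes that set this pair apart, so leaving the pair out must raise the difference and lends it no support. Tkt, transketolase of the pentose phosphate path, differed by 0.69 with all controls (adjusted p = 0.0761) and by 0.94 without that pair (adjusted p = 0.00868). Leaving out control replicate 1 or control replicate 2 alone gave 0.79 and 0.78 (adjusted p = 0.0393 and 0.0476). These are the highest Tkt controls, so the larger differences lend no support here either. Ndrg1 differed by 0.40 in reloaded muscle (adjusted p = 0.243), against 0.77 in suspended muscle (adjusted p = 0.00376).

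The 5 genes below control came from several lists: Bdh1 and Fabp3 from fatty acid and ketone use, Idh2 from the citric acid cycle and Ldhb from glucose and glycogen use, while Plin5 was in none of them. Bdh1, the mitochondrial enzyme that turns the ketone body beta-hydroxybutyrate into acetoacetate, had values of 7.25, 7.88, 7.16, 7.81 and 7.75 in reloaded muscle, 7.20, 6.86, 7.65, 7.47 and 6.92 in suspended muscle and 8.61, 8.55, 8.56, 8.63 and 8.64 in control muscle. The controls lay close together and far above both other groups, which overlapped. Reloaded muscle was 2.04-fold lower than control (log2 difference -1.03 ± 0.15, limma adjusted p = 0.00101) and did not pass against suspended muscle (0.35, adjusted p = 0.474). A second Bdh1 probe set gave -0.83.

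Fabp3, the fatty acid-binding protein of heart and oxidative muscle, had values of 11.16, 11.57, 10.81, 11.24 and 11.13 in reloaded muscle, against 11.57, 11.69, 11.98, 12.36 and 12.06 in control muscle. It was lower than control by -0.75 ± 0.14 in reloaded muscle (limma adjusted p = 0.0128) and by -1.03 in suspended muscle (adjusted p = 0.000805). Control replicates 1 and 2 were the lowest controls; without them the difference was -0.95 (adjusted p = 0.00298), and without control replicate 21 or 22 the adjusted p was 0.0502 to 0.0508. Plin5, which coats lipid droplets beside mitochondria, was lower by -0.65 ± 0.13 (adjusted p = 0.0334), or by -0.89 without control replicates 1 and 2 (adjusted p = 0.000987). Leaving out any 1 of 7 arrays ended the Plin5 call (control replicates 19, 21 or 22, reloaded replicates 14, 16 or 33, suspended replicate 30; adjusted p 0.0501 to 0.123).

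Idh2, the NADP-dependent isocitrate dehydrogenase of mitochondria, had values of 10.58, 10.96, 10.65, 10.80 and 10.77 in reloaded muscle, against 11.49, 11.61, 11.06, 11.36 and 11.40 in control muscle. The difference of -0.63 ± 0.11 (limma adjusted p = 0.00986) stood beside -0.62 in suspended muscle (adjusted p = 0.0147). Ldhb, the lactate dehydrogenase subunit of oxidative tissue, was lower by -0.58 ± 0.09 (adjusted p = 0.00275). Control replicates 1 and 2 averaged higher than the other controls for both, and without them neither passed (Idh2 -0.52, adjusted p = 0.149; Ldhb -0.51, adjusted p = 0.062). The Ldhb call was also lost with the mean of its probe sets.

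Around these calls, whole lists of oxidative genes sat slightly low. Of 34 tested genes of fatty acid uptake and oxidation and ketone use, 2 were called lower, against 0.0547% of all tested genes, and 0 higher. In reloaded muscle 31 had a lower mean, against 58.2% of all tested genes. The arrays of 11 did not overlap, against 2.64% of all tested genes. The list's median was -0.26 in reloaded and -0.24 in suspended muscle, against -0.02 and 0.00 for all tested genes. Taken array by array, the median ran from -0.40 to -0.12 in reloaded muscle and from -0.10 to 0.11 in control muscle. The fat oxidation enzymes Hadha (-0.32, limma adjusted p = 0.104) and Acadvl (-0.32, adjusted p = 0.189) and the malonyl-CoA decarboxylase Mlycd (-0.39, adjusted p = 0.124) are examples that did not pass. Of 72 tested oxidative phosphorylation genes, 0 were called by limma, 66 had a lower mean and 17 did not overlap, with a median of -0.11 (suspended -0.10); the largest was the complex III subunit Uqcr11, at -0.21. Of 19 citric acid cycle enzymes, Idh2 was the single call, 18 had a lower mean and 3 did not overlap, with a median of -0.10. Endothelial marker genes were low along with them, 15 of 18 with a lower mean (median -0.12, 0 called by limma; mean level per array 7.18 to 7.33 in reloaded, 7.23 to 7.29 in suspended and 7.28 to 7.39 in control muscle), and their part in the result was not tested.

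One regulator ran against the list it belongs to. Ppargc1a, the coactivator PGC-1alpha that drives mitochondrial genes, had values of 9.41, 8.17, 7.63, 8.18 and 6.89 in reloaded muscle, against 6.86, 6.81, 6.74, 6.64 and 6.98 in control muscle. Of the reloaded arrays, 4 lay above all controls and replicate 33 lay within them, so the spread was wide (SD 0.92, against 0.13 in controls). The difference was 1.25 ± 0.27, a mean fold of 2.38 that did not pass (limma adjusted p = 0.056; 95% interval of the fold, 1.60 to 3.54). Its other 4 probe sets, dimmer on average, differed by 0.99 to 1.21, and all 4 passed where each probe set was tested on its own (adjusted p 0.00985 to 0.0362), while the brightest had an adjusted p of 0.0632 in that fit. Without reloaded replicate 33 the difference was 1.54 (adjusted p = 0.00154), and without reloaded replicate 16 it was 1.36 (adjusted p = 0.0401). These are the lowest reloaded arrays, so leaving either out must raise the difference and lends it no support. Leaving out suspended replicate 8 or 11, which enters only through the shared spread, also brought the adjusted p under 0.05 (0.0471 and 0.0492). Against suspended muscle, the difference of 1.29 was called (adjusted p = 0.0261).

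**Figure D4:**
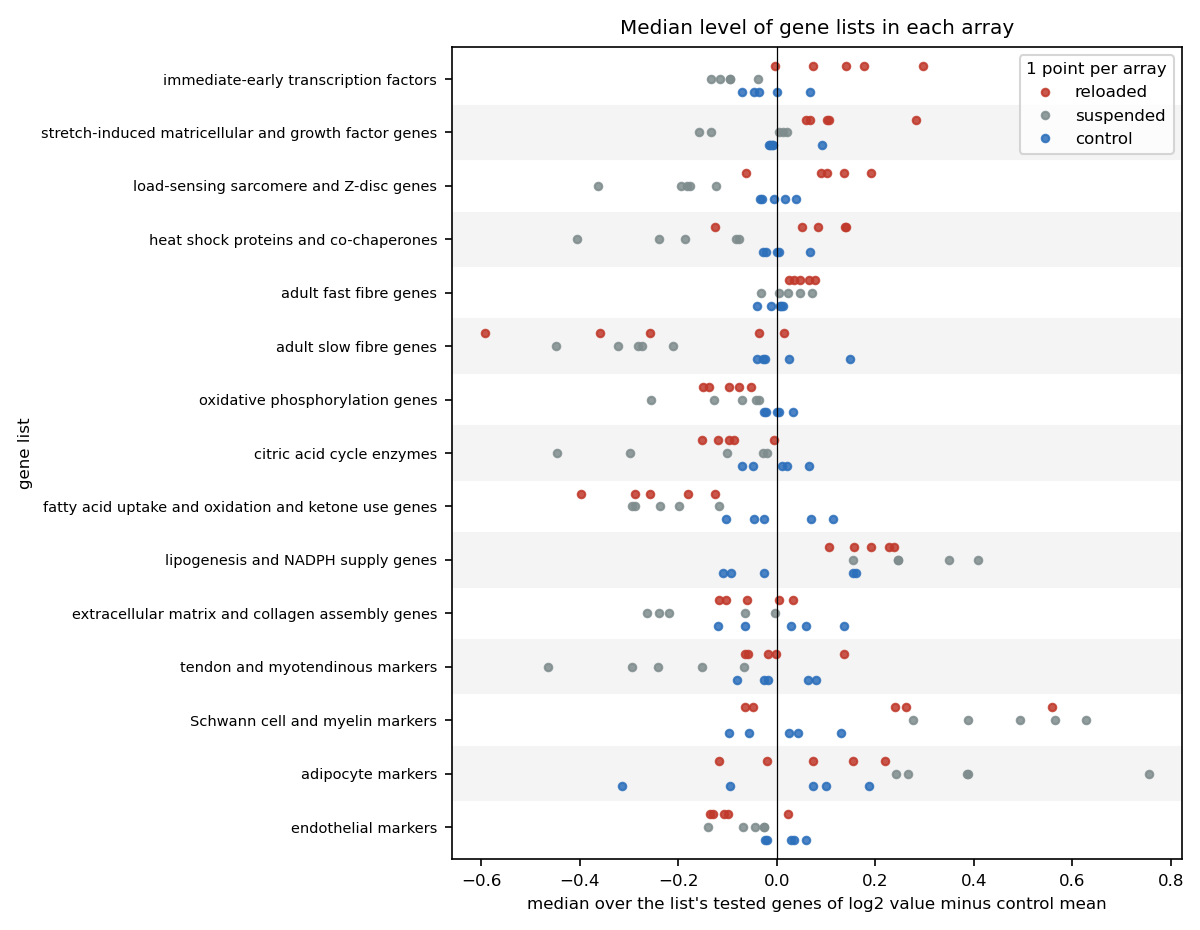
For each gene list, each point is 1 array: the median over the list's tested genes of the log2 value minus the control mean. Reloaded (red) points of oxidative phosphorylation genes (-0.15 to -0.05) and of fatty acid and ketone genes (-0.40 to -0.12) lie left of all control (blue) points. Those of adult fast fibre genes (0.03 to 0.08) lie right of them. Those of immediate-early genes spread from 0.00 to 0.30 and overlap the controls.

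No fibre-type gene passed the test. All 14 tested slow fibre genes had a lower mean in reloaded muscle, against 58.2% of all tested genes. Their median was -0.19, against -0.32 in suspended muscle. The slow myosin Myh7 differed by -0.20 (95% interval -0.43 to 0.04), the ventricular and slow light chain Myl2 by -0.44 (adjusted p = 0.279) and the slow calsequestrin Casq2 by -0.40 (adjusted p = 0.145). The array medians of this list ran from -0.59 to 0.01 in reloaded muscle, so single reloaded arrays lay at control level. Fast fibre genes had a median of 0.04, or 0.01 after quantile normalization, with Myh4 at 0.10 (95% interval -0.03 to 0.24) and Myh1 at 0.25 (0.00 to 0.49). Of the 14 tested, 12 had a higher mean, against 41.8% of all tested genes. Their array medians ran from 0.03 to 0.08 in reloaded and from -0.04 to 0.01 in control muscle, small but without overlap.

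Several programmes that could be looked for after suspension were not called. The atrophy ubiquitin ligase Fbxo32 (-0.28, 95% interval -0.79 to 0.22), its regulator Foxo1 (0.28, -0.01 to 0.56), the cell cycle inhibitor Cdkn1a (-0.07, -0.40 to 0.26) and Gadd45a (0.17, -0.07 to 0.40) did not pass in limma. The other Foxo1 probe sets differed by 0.62 (limma adjusted p = 0.0507 with each probe set tested on its own), 0.30 and -0.11. None of 39 ubiquitin ligase and proteasome genes (median -0.05), 20 glucocorticoid-responsive genes (median 0.08), 27 cytokine, chemokine and NF-kappa-B genes (median -0.03), 31 ribosome biogenesis genes (median -0.03) or 36 extracellular matrix genes (median -0.05) was called. Collagen Col1a1 had values of 9.94, 10.47, 10.04, 9.74 and 8.81 in reloaded muscle, against 9.65, 9.62, 10.61, 10.59 and 10.61 in control muscle, where replicates 1 and 2 were low. Its difference was -0.42 (-1.20 to 0.37), or -0.80 without those 2 arrays (adjusted p = 0.868).

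Markers of other cell types gave no call either. None of 18 macrophage and monocyte markers (median 0.05, 14 with a higher mean), 10 neutrophil markers (-0.06), 6 T and B cell markers (0.00), 11 adipocyte markers (0.12), 12 fibroblast markers (-0.02) or 14 tendon markers (0.00) passed in limma. Mean levels of the macrophage markers were 6.45 to 6.49 per array in reloaded, 6.26 to 6.65 in suspended and 6.37 to 6.51 in control muscle. Myelin and Schwann cell markers were the exception in size: all 8 tested had a higher mean (median 0.22, and 0.49 in suspended muscle). A higher mean was found for 41.8% of all tested genes. Mbp, myelin basic protein, stood at 8.82, 8.38, 10.40, 11.30 and 10.58 in reloaded muscle, against 9.18, 8.33, 9.25, 8.96 and 8.86 in control muscle. Of the reloaded arrays, 3 lay above and 2 within the controls, and the difference of 0.98 (95% interval 0.20 to 1.76) did not pass (adjusted p = 0.538). Nerve content of the dissected pieces was not measured, and its part in other genes was not tested.

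The reloaded arrays differed in level over the called genes. Reloaded replicate 16 had the lowest value of its group in 17 of the 24 higher genes, with a median deviation from the rest of its group of -0.63 on the log2 scale, and reloaded replicate 18 the highest in 18, at 0.42. For the 5 lower genes, replicate 16 was the lowest of its group in 4 and replicate 15 the highest in 4. Replicate 16 thus read low among the higher and the lower genes, which is not a smaller response in both. How often it was lowest over all tested genes was not counted. Among controls, replicate 2 was the highest in 17 of the 24 higher genes, at 0.20. Without reloaded replicate 16 limma called 43 genes, and without control replicate 21 it called 20.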

How the data were processed

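The deposited table holds log2 values, from 2.49 to 14.23, made by the authors; RMA and MAS5 are named per the submitters' processing notes, and their versions and roles, and any scan batch, are not given in the sources here. The log2 values were taken as deposited. Of 22626 non-control probe sets, 20380 have 1 gene symbol in the platform annotation, 691 several and 1555 none. Each of 12393 genes was read by the brightest of its probe sets on average (4956 genes had several). Genes above a log2 value of 5.83, the 40th percentile, on at least 4 of the 23 arrays were tested: 9133 passed and 3260 did not.

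The 15 calf arrays were fitted together with limma 3.58.1 in R 4.3.3 (lmFit, eBayes, two-sided), after a test on simulated data, and p-values were adjusted over all 9133 genes by Benjamini-Hochberg. The median standard error was 0.09 on the log2 scale; the number of arrays limits the precision. Each gene's standard error and interval come from 1 spread shared by the 3 groups. They are too narrow where the reloaded arrays spread much more than the others, as in Hspa1b, Ankrd1 and Ppargc1a. No 2 arrays were identical. Called genes were named where they were among the 15 largest changes without overlap in a direction, the 4 largest of a gene list, or the 5 largest changes called or not called against suspended muscle, beside fixed genes given whether called or not. The genes, lists and tests were chosen with earlier results of these data known. Some fixed genes are not reported here. Promoter windows come from RefSeq.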

Additional observations from a re-analysis of the deposited data

Results flagged for a closer look

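Dixon's test at 95% was applied to the 110 groups of 5 arrays of the named genes in reloaded and control muscle, and 2 groups held an array far from the others. Chance gives such a flag in about 1 of 20 groups. Reloaded replicate 16 had a Bag3 value of 9.69, below the 10.12 to 10.19 of the other reloaded arrays, a gap of 0.43. Control replicate 2 had a Myh1 value of 12.23, below the 12.41 to 12.47 of the other control arrays, a gap of 0.18. No cause was tested for either.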

How the results depend on the processing

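Of the 29 genes called between reloaded and control muscle, 14 kept their call under all 29 alternatives, 15 lost it under some, and 0 changed sign. The count of 29 became 48 with each probe set tested on its own, 88 (58 higher, 30 lower) with array weights and 53 (37 and 16) with only the 10 arrays compared. Among alternatives chosen after seeing the data, it became 61 (43 and 18) without suspended replicates 8 and 9 together and 74 (46 and 28) with array range as a covariate. All 29 genes were among those called in these last 4 fits. With 1 array left out in turn it ran from 20 to 43, and 17 of the 29 genes kept their call throughout. The 53 genes called between reloaded and suspended muscle became 84 with each probe set on its own and 39 to 63 with 1 array left out. The 34 called between suspended and control muscle became 17 with a change of at least 1.5-fold. They became 15 to 47 with 1 array left out (15 without control replicate 22, 16 without control replicate 19). In fits chosen after seeing the data, 18 were called without control replicates 1 and 2, of which 10 were among the 34. Without suspended replicates 8 and 9, 7 were called, all among the 34. Single genes of this comparison were not followed through the alternatives. Of 25 uncalled named genes, 5 were called under some alternative. The median of all tested genes stayed between -0.02 and -0.01 under both rescalings. The causes were not tested. No paired analysis was possible because reloaded and control titles share no replicate number. With 5 arrays a group, modest changes can go uncalled, and weakly hybridising genes were not tested.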
